A study of Mus musculus with 9 samples.

Results

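Potassium channels let potassium ions leave or enter the cell along their gradient, and so set the resting potential, shape the action potential and limit repetitive firing. Pore-forming subunits fall into voltage-gated (Kv), inward rectifier (Kir), 2-pore-domain leak (K2P) and calcium-activated classes, and auxiliary subunits bind to them and alter their gating or their delivery to the membrane. In the hippocampus these channels govern the excitability of granule cells, pyramidal cells and interneurons, and glia, vessels and choroid plexus carry sets of their own.

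The genes described are the protein-coding genes whose symbol begins with Kcn, other than Kcnj10, with a mean level of at least 1 TPM over the 9 libraries of the series. TPM is a level scaled to transcript length and library depth, so it may be compared between genes. The rule kept 71 of the 55536 genes in the deposited tables. There are 94 protein-coding Kcn genes, of which 22 lay below the threshold. The 71 genes comprise 33 Kv, 11 Kir, 9 K2P and 7 calcium-activated channel genes and 11 auxiliary subunit genes. Kcnt1 and Kcnt2 (sodium-activated) and Kcnu1 (a pH-sensitive relative known from sperm) were placed with the calcium-activated class because of their shared family. Just inside the threshold stood Kcnh5 at 1.38 TPM, Kcnh4 at 1.33 TPM and Kcnj14 at 1.19 TPM. Just outside it stood Kcne4 and Kcnh6, both at 0.91 TPM, and Kcne3 at 0.81 TPM.

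RNA of the hippocampus was sequenced from hAPP-J20 mice (Tg) and from wild-type mice (nTg). The hAPP-J20 line carries a mutant human amyloid precursor protein under a promoter active mainly in neurons, and it deposits plaques with age. There were 3 Tg libraries at 24 weeks, the post-plaque age, 3 Tg libraries at 15 weeks, the pre-plaque age, and 3 nTg libraries, of which replicates 1 and 3 were from 24 weeks and replicate 2 was from 15 weeks. A library is written here as genotype, age and replicate number, so that Tg_24w_3 is the third Tg library of 24 weeks. The labels call the replicates biological without saying that each is a separate animal. The p-values therefore reflect spread among libraries, some of which may be technical. The labels used here do not give the sex of the mice. The batch label equals the age, and the 2 effects cannot be told apart.

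Total counts lay between 12733452 and 21529266 per library, so that 1 CPM, the depth-scaled count, stood for 12.73 to 21.53 counts. The 10 markers of granule cells and the 10 of CA1 and CA3 pyramidal cells were detected in every library. Tg_24w_3 had the lowest depth and stood apart on the first principal component, at 71.83 against -22.6 to 1.3 in the other libraries. Its 5 blood markers had a summed level of 786.2 CPM, against 144.7 to 402.2 CPM elsewhere, and its 7 markers of striatal projection neurons summed to 302.8 CPM, against 148.9 to 195.2 CPM elsewhere. Results that rest on it are given with and without it.

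Every pore-forming member carries the potassium selectivity filter, the short stretch that lines the pore and passes potassium in preference to sodium. A search of the coding sequences of the 71 members (GENCODE M21, GRCm38) looked for codons for threonine or serine, then valine, isoleucine, leucine or threonine, then glycine, then tyrosine, phenylalanine or leucine, then glycine. It found 1 match in each of the 33 Kv, 11 Kir and 7 calcium-activated genes, 2 in each of the 9 K2P genes, whose subunits hold a pair of pore loops, and 0 in each of the 11 auxiliary genes. The filter sequences of the Kir, K2P and calcium-activated members with the smallest p-values in their classes in Tg at 24 weeks are shown on the coding strand, 5′ to 3′, with the 15 signature bases in capitals and 15 bases of coding sequence on each side. They are shown because this stretch separates the pore-forming classes from the auxiliary genes.
Kcnj4, Kir, chromosome 15, coding bases 382 to 426: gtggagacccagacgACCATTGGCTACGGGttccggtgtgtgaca
Kcnk9, K2P, chromosome 15, first pore loop: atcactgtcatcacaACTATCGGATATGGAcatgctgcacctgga
Kcnk9, K2P, chromosome 15, second pore loop: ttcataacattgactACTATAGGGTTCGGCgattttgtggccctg
Kcnn3, calcium-activated, chromosome 3: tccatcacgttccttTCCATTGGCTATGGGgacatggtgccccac

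The first loop of Kcnk9 has the tyrosine codon TAT at the fourth signature codon and its second loop has the phenylalanine codon TTC.

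Levels spanned more than 2 orders of magnitude. The median member stood at 12.05 TPM, 39 members reached 10 TPM, 7 reached 50 TPM and 18 lay between 1 and 5 TPM. The 5 most abundant members held 38% of the summed TPM of all 71. They were Kcnab2 at 225 TPM, a beta subunit of the Kcna channels, Kcnj4 at 135 TPM, a strong inward rectifier of forebrain neurons, Kcnip2 at 89.0 TPM, a calcium-binding subunit of the Kcnd channels, Kcnk1 at 82.3 TPM, a weak leak channel, and Kcnip3 at 68.5 TPM, another calcium-binding Kcnd partner that also binds presenilins.

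Among the leading genes of the other classes, Kcnd2, a Kv gene whose channel carries the dendritic A-type current, stood at 48.5 TPM. Kcnj3, a subunit of the G protein-gated rectifier, stood at 57.6 TPM and Kcnk2, a mechanically and lipid-gated leak channel, at 16.6 TPM. In the calcium-activated class Kcnma1, the large-conductance channel, stood at 23.9 TPM and Kcnn2, a small-conductance channel of the afterhyperpolarization, at 10.9 TPM. The coefficient of variation of TPM over the 9 libraries ran from 7.1% for Kcnh3 to 48.3% for Kcne2, with a median of 19.5%. It exceeded 30% in 11 members. TPM was taken here without the normalisation factors used for CPM, so these values include differences in scale between libraries.

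**Figure D1:**
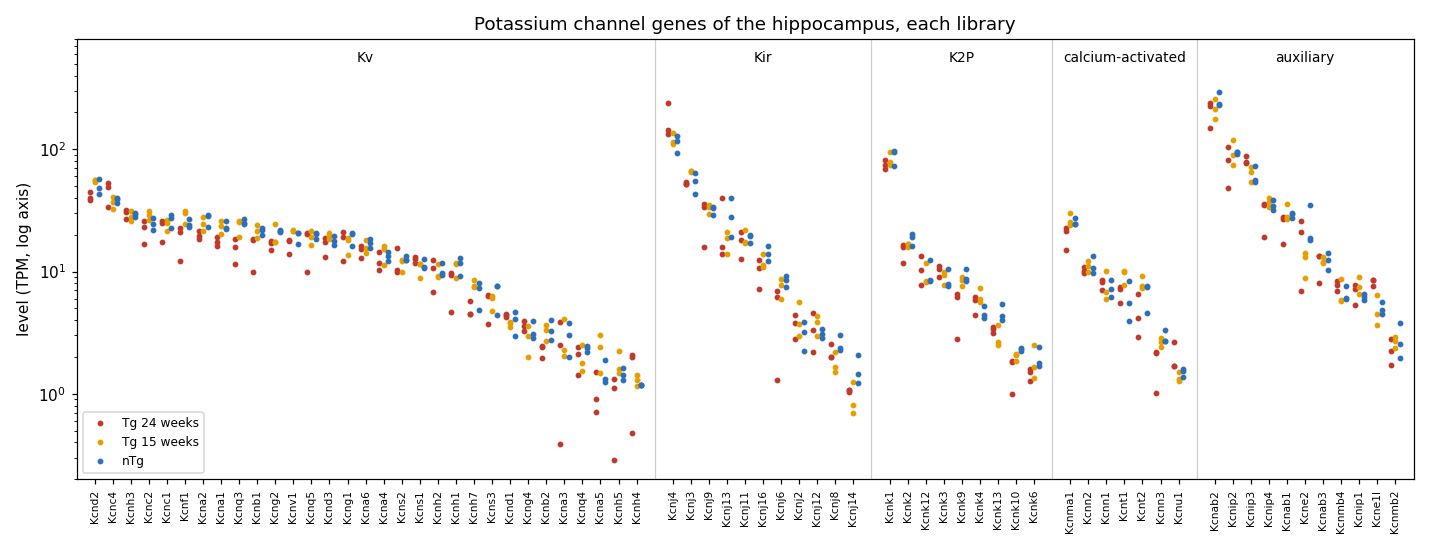
Level of 69 of the 71 genes in each library (points; vertical log axis in TPM), grouped by class on the horizontal axis and ordered by mean level, with Tg at 24 weeks in red, Tg at 15 weeks in amber and nTg in blue. Kcnab2 averaged 225 TPM and Kcnj14, the lowest member, 1.19 TPM. In CPM, which is not drawn here, Tg_24w_3 held the lowest value of 30 of the 71 members.

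Summed by class, the Kv genes stood at 580.4, 590.9 and 407.3 TPM in Tg at 24 weeks, at 546.7, 642.5 and 654.7 TPM in Tg at 15 weeks, and at 622.0, 661.9 and 600.2 TPM in nTg. On this scale all 3 Tg libraries of 24 weeks lay below the 3 nTg libraries, with Tg_24w_3 far below the other 2. The TPM sums were taken without the normalisation factors used for CPM, and this separation was not checked on CPM. On TPM the median log2 difference of all genes from nTg at 24 weeks was -0.08, against 0.03 on counts. The Kir sum was 317.9 ± 33.1 TPM in Tg at 24 weeks, 286.8 ± 16.0 TPM in Tg at 15 weeks and 279.6 ± 13.7 TPM in nTg (SD, n = 3 each), and these groups overlapped. The K2P sum was 127.6 ± 8.19 TPM in Tg at 24 weeks, 139.6 ± 15.4 TPM in Tg at 15 weeks and 148.2 ± 10.4 TPM in nTg (SD, n = 3 each), again with overlap.

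The calcium-activated sum was 53.1 ± 7.82 TPM in Tg at 24 weeks, 66.5 ± 2.91 TPM in Tg at 15 weeks and 60.9 ± 4.81 TPM in nTg (SD, n = 3 each). Every Tg library of 24 weeks lay below every Tg library of 15 weeks in this class. Tg at 24 weeks overlapped with nTg. Tg at 15 weeks lay just above nTg, with 64.2 TPM in Tg_15w_1 and 64.1 TPM in nTg_24w_3 as the nearest pair. These sums too were taken without the normalisation factors used for CPM, and the order of the groups was not checked on CPM. Of the summed TPM of all members, Kv genes held 37.2% on average over the libraries, auxiliary genes 31.3%, Kir genes 18.9%, K2P genes 8.78% and calcium-activated genes 3.81%. The Kir share was 27.3% in Tg_24w_3, the highest of the 9 libraries, and 15.9% in the lowest.

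The first comparison was of 24-week Tg, the post-plaque group, with nTg. No member passed the threshold of an adjusted p under 0.05 (edgeR quasi-likelihood test with Benjamini-Hochberg adjustment over 17457 genes), where 0.132% of all genes tested did. DESeq2 called 2 members (Kcnip3 and Kcnq3) and limma voom 3 (these and Kcnk9), as shares of 71 against 1.25% and 1.36% of all genes in those fits. At an unadjusted p under 0.05, edgeR gave 5 higher and 9 lower members, which are 7.04% and 12.7% of 71, against 7.68% and 5.34% of all genes. Without the nTg library of 15 weeks the counts were 5 higher and 3 lower, against 4.32% and 3.7% of all genes in that fit. They were 3 and 6 without nTg_24w_1 (against 5.4% and 4.79%) and 6 and 6 without nTg_24w_3 (against 7.24% and 4.98%). Against the 24-week nTg libraries alone they were 2 and 2 (against 1.62% and 2.31%), and on the TPM scale 3 and 12 (against 2.81% and 6.55%).

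The median log2 difference of the members in this comparison was -0.13, and that of all genes was 0.03. Of the 71 members 48 (67.6%) had a negative difference, against 46.7% of all genes. The median moved to -0.07 without Tg_24w_3, with 42 members negative, to -0.06 without the nTg library of 15 weeks, and to -0.22 without Tg_24w_1. Groups did not overlap for 9 members higher in Tg at 24 weeks (12.7%, against 9.72% of all genes) and for 16 lower ones (22.5%, against 7.14% of all genes). Without Tg_24w_3, 11 members were higher (15.5%, against 15.6%) and 18 lower (25.4%, against 11.3%). In bulk tissue, fewer cells of a type and less RNA per cell cannot be told apart.

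**Figure D2:**
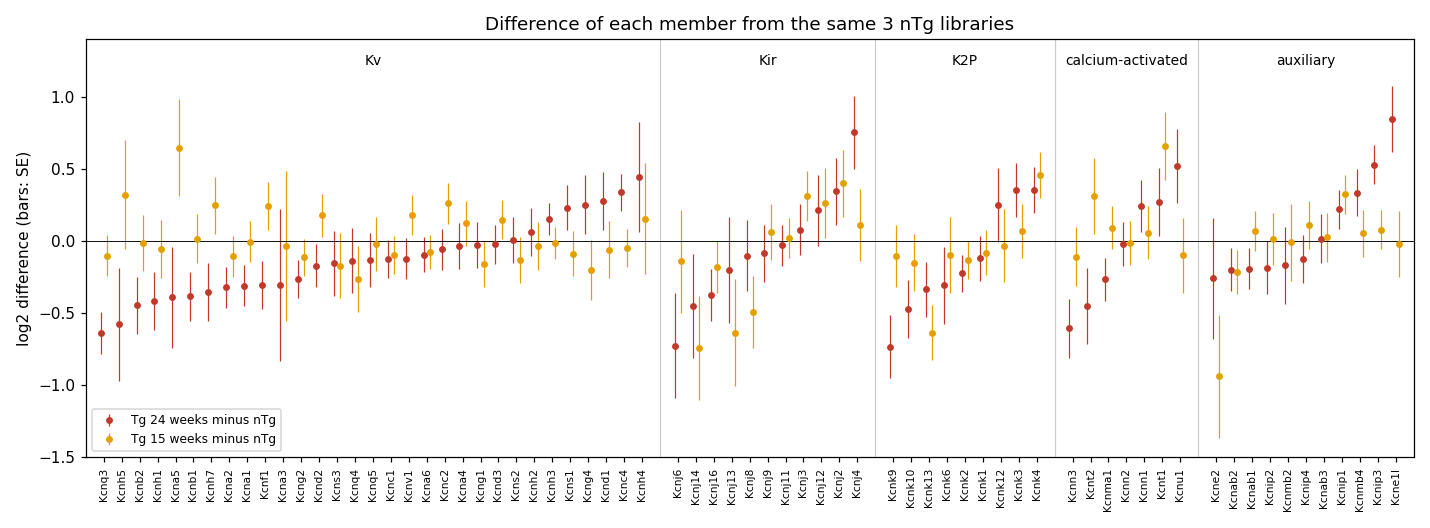
Log2 difference of 69 members from nTg (points; bars are standard errors from edgeR), by class and ordered by the difference of Tg at 24 weeks (red), with Tg at 15 weeks in amber. Both differences use the same 3 nTg libraries, so they are not independent; the range at 24 weeks runs from -0.73 (Kcnk9 and Kcnj6) to 0.85 (Kcne1l).

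Among the 33 Kv genes, 25 had a negative difference in Tg at 24 weeks and the median was -0.14. Without Tg_24w_3 these were 20 genes and -0.05, without the nTg library of 15 weeks 22 and -0.08, and without Tg_24w_1 26 and -0.24. The smallest p among the Kv genes was that of Kcnq3, a subunit of the M-current, a slow current that damps repetitive firing.

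Kcnq3 (chromosome 15, 65986387 to 66286642) stood at 109.7, 121 and 94.6 CPM in 24-week Tg, at 138.6, 178 and 156 CPM in 15-week Tg, and at 156, 168 and 183 CPM in nTg. All Tg libraries of 24 weeks lay below all others, and Tg at 15 weeks overlapped with nTg. The log2 difference from nTg was -0.64 ± 0.14 (SE) with an adjusted p of 0.154, and it was -0.56 without Tg_24w_3. Of 19 alternative fits 4 took its adjusted p below 0.05, among them DESeq2 at 0.00414, and the range over them was 0.00414 to 0.913.

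The 6 Kcna members, low-threshold channels of axons, all had negative differences under each scaling, with a median of -0.31. Without Tg_24w_3 it was 5 of 6 and -0.18, without nTg_24w_3 5 of 6 and -0.37, and without nTg_24w_1 6 of 6 and -0.17. Both Kcnb members, the main delayed rectifiers of the soma, had negative differences under each scaling, with a median of -0.42. The Kcnb median was -0.33 without Tg_24w_3, -0.31 without the nTg library of 15 weeks and -0.505 without Tg_24w_1. No member of these families passed the threshold, and 46.7% of all genes had a negative difference. The differences of Kcna4 and Kcna6 were small, at -0.035 and -0.095. These are 2 of the 10 Kv families among the members, and not the only ones without a positive member. The single members of the Kcnf and Kcnv families were negative too, at -0.31 and -0.12. Others were mixed, such as Kcnh with 3 negative and 3 positive members.

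Of the 33 Kv genes 8 had a positive difference. Groups did not overlap for 2 of the 33 that were higher, Kcnc4 and Kcnh3 (against 9.72% of all genes). They did not overlap for 8 of the 33 that were lower (against 7.14%). Kcnc4, a channel of fast-spiking neurons and of nerve terminals, had 90.7, 80.5 and 69.3 CPM in 24-week Tg, 58.2, 65.1 and 60.9 CPM in 15-week Tg, and 62.0, 66.2 and 62.3 CPM in nTg. The lowest Tg library of 24 weeks exceeded the highest of the others. The log2 difference from nTg was 0.34 ± 0.13 with an adjusted p of 0.335, and 0.22 without Tg_24w_1. Kcnh3, named here after its values were seen, stood at 85.9, 79.7 and 86.3 CPM in 24-week Tg, at 73.3, 76.9 and 74.2 CPM in 15-week Tg, and at 73.7, 78.6 and 74.5 CPM in nTg. All Tg libraries of 24 weeks lay above the other 6, with a log2 difference from nTg of 0.15 ± 0.11 and an adjusted p of 0.58.

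Of the 11 Kir genes 7 had a negative difference and 4 a positive one, with a median of -0.09. The median was -0.18 without Tg_24w_2, -0.14 without nTg_24w_3, -0.06 without Tg_24w_3, -0.05 without the nTg library of 15 weeks and -0.02 without nTg_24w_1, and limma voom put it at 0.01. Kcnj4 stood at 143, 129 and 284 CPM in 24-week Tg, at 118, 118 and 119.5 CPM in 15-week Tg, and at 87.5, 125 and 117 CPM in nTg. Tg_24w_3 was far above the other 8 libraries, although the other two Tg libraries of 24 weeks also lay above all nTg libraries. On the log2 scale the difference was 0.75 ± 0.25 with an adjusted p of 0.303, and 0.30 without Tg_24w_3, in which striatal markers were also highest; the part of those cells in the value was not tested.

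Kcnj6, a subunit of the G protein-gated rectifier that answers inhibitory transmitters, lay at the other extreme in the same library. It stood at 22.2, 23.8 and 5.53 CPM in 24-week Tg, at 22.3, 28.3 and 27.5 CPM in 15-week Tg, and at 30.3, 26.0 and 30.03 CPM in nTg. All 3 Tg libraries of 24 weeks lay below nTg, and Tg_24w_3 lay far below the other two. The log2 difference was -0.73 ± 0.36 with an adjusted p of 0.409, and -0.33 without Tg_24w_3.

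Of the 9 K2P genes 6 had a negative difference at 24 weeks, with a median of -0.23, which became -0.11 without nTg_24w_3. Kcnk9, an acid-sensitive leak channel, stood at 35.7, 36.1 and 19.4 CPM in 24-week Tg, at 51.1, 52.4 and 38.6 CPM in 15-week Tg, and at 46.4, 58.3 and 47.8 CPM in nTg. Tg at 24 weeks lay below every other library. It differed from nTg on the log2 scale by -0.73 ± 0.22 with an adjusted p of 0.262, and -0.51 without Tg_24w_3.

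The 7 calcium-activated genes and their relatives were split, with 4 negative and 3 positive differences and a median of -0.02. Leaving out 1 library turned its sign or moved it, to 0.14 without nTg_24w_3, -0.14 without nTg_24w_1, -0.09 without Tg_24w_3, -0.05 without the nTg library of 15 weeks and -0.05 without Tg_24w_2. Kcnn3, a small-conductance channel of the afterhyperpolarization, stood at 10.7, 10.04 and 5.94 CPM in 24-week Tg, at 12.4, 13.3 and 12.3 CPM in 15-week Tg, and at 12.2, 15.7 and 12.99 CPM in nTg. Tg at 24 weeks lay below all others. On the log2 scale the difference was -0.61 ± 0.21 with an adjusted p of 0.303, and -0.41 without Tg_24w_3.

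Kcnu1 stood at 2.93, 4.39 and 3.499 CPM in 24-week Tg, at 2.75, 2.27 and 2.03 CPM in 15-week Tg, and at 2.47, 2.34 and 2.76 CPM in nTg. Its Tg libraries of 24 weeks lay above all others, at a level near the lower edge of the set. The log2 difference was 0.52 ± 0.26 with an adjusted p of 0.407, and 0.31 without Tg_24w_2.

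Among the 11 auxiliary genes 6 differences were negative and 5 positive, with a median of -0.13, which became 0.04 without Tg_24w_3, 0.07 without nTg_24w_1, -0.04 without the nTg library of 15 weeks and -0.07 without Tg_24w_2. Groups did not overlap for 4 auxiliary genes higher in Tg at 24 weeks (against 9.72% of all genes) and for 0 lower ones (against 7.14%). Kcnip3 stood at 129, 139 and 152 CPM in 24-week Tg, at 93.8, 109.1 and 104.5 CPM in 15-week Tg, and at 112, 90.3 and 89.2 CPM in nTg. All Tg libraries of 24 weeks lay above the other 6. It differed from nTg on the log2 scale by 0.53 ± 0.14 with an adjusted p of 0.216, and by 0.46 without Tg_24w_3; over 19 alternatives the adjusted p ran from 0.0244 to 0.913 and passed the threshold in 3.

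Kcne1l, a single-span subunit that dampens Kv channels, stood at 5.46, 5.86 and 7.32 CPM in 24-week Tg, at 3.38, 2.70 and 4.06 CPM in 15-week Tg, and at 3.76, 3.38 and 3.19 CPM in nTg. The 3 Tg libraries of 24 weeks lay above the other 6. On the log2 scale the difference was 0.85 ± 0.23 with an adjusted p of 0.239, and 0.71 without Tg_24w_3.

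**Figure D3:**
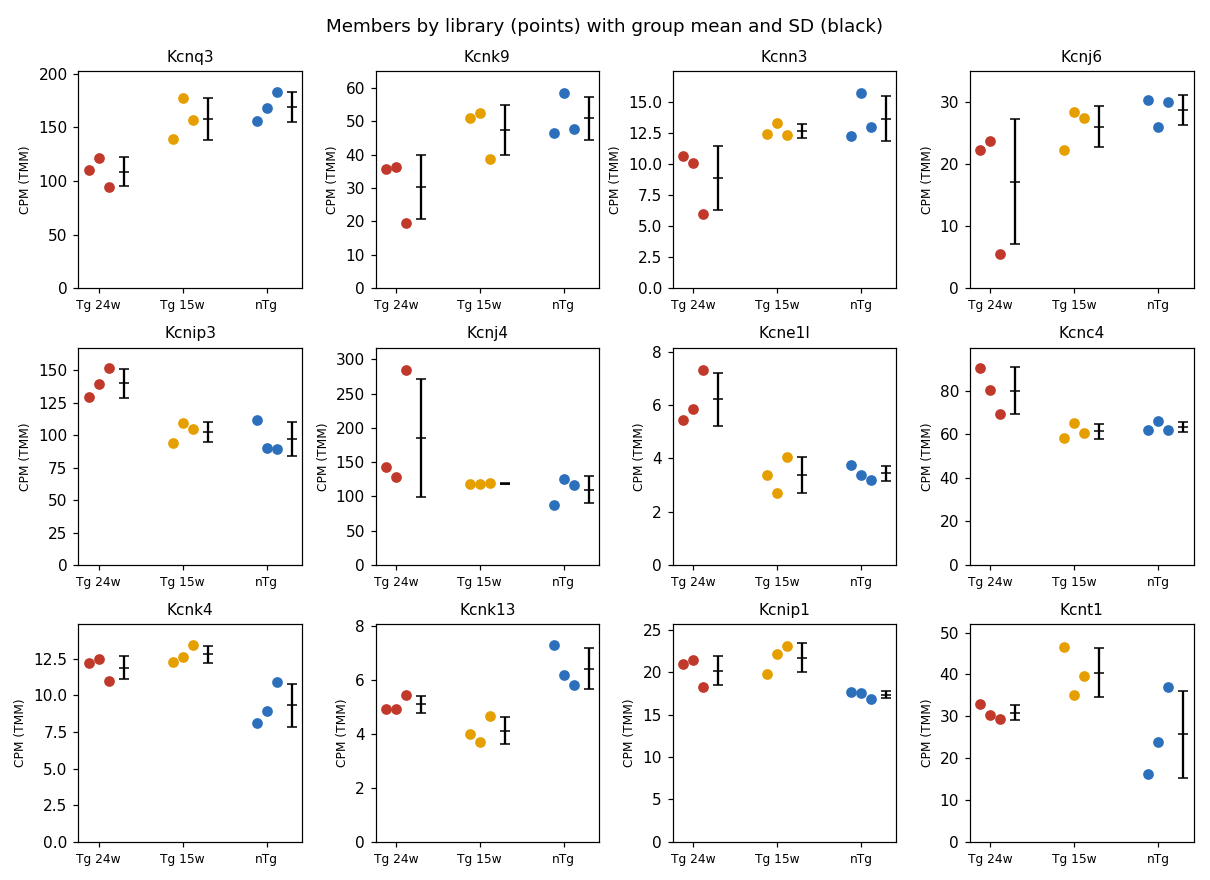
TMM-normalised CPM of 12 genes in each library (colored points) with the group mean and SD (black), for Tg at 24 weeks, Tg at 15 weeks and nTg from left to right; each vertical axis starts at 0. Kcnq3 and Kcnk9 lay lower and Kcnip3 and Kcne1l higher in all 3 Tg libraries of 24 weeks than in the other 6, while Kcnj4 and Kcnj6 rest largely on Tg_24w_3 (283.9 and 5.53 CPM).

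Tg_24w_3 had the members' largest median deviation. The members' median deviation from the median of the other libraries was -0.25 on the log2 scale there, against -0.05 to 0.12 in the other 8, while all genes had a median of 0.03. It held the lowest value of 30 members and the highest of 11, and 25 members deviated by over 0.5. Without it and nTg_24w_1, 14 members were higher with no overlap (19.7%, against 25.7% of all genes) and 25 lower (35.2%, against 21%), and the median was -0.06.

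**Figure D4:**
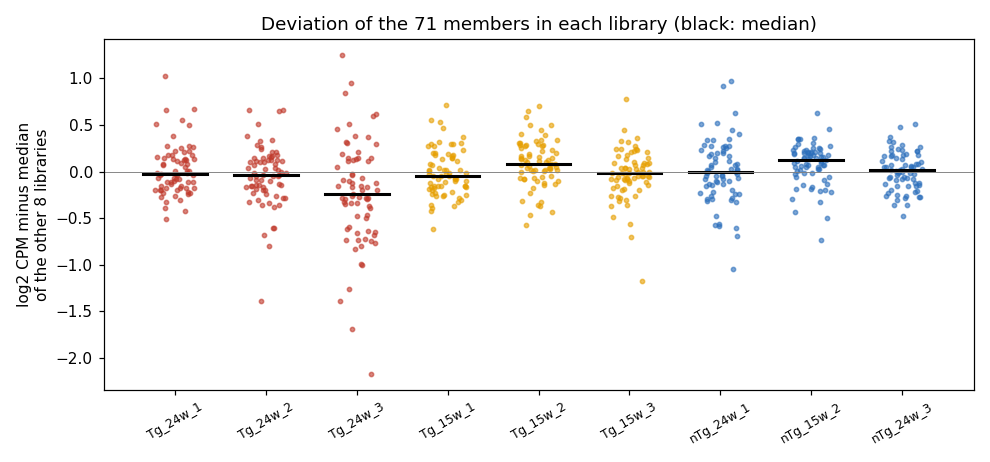
Deviation of each of the 71 members (points) from its median in the other 8 libraries, on the log2 CPM scale, by library; black bars are medians. The bar of Tg_24w_3 lies at -0.25 and those of the other libraries between -0.05 and 0.12.

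Marker genes of granule cells and of neuronal activity differed as well in Tg at 24 weeks. The 10 granule cell markers had a median log2 difference of -0.64, 7 of them negative and 2 past the threshold. At an unadjusted p under 0.05 in edgeR, 6 of them were lower and 2 higher (against 5.34% and 7.68% of all genes). They summed to 359.3 to 416.5 CPM in 24-week Tg, 381.2 to 415.8 CPM in 15-week Tg and 410.7 to 497.5 CPM in nTg, with none at 0. The 8 activity-regulated genes were all negative with a median of -1.10, 5 past the threshold, and summed to 210.5 to 218 CPM in 24-week Tg, 234.1 to 284.9 CPM in 15-week Tg and 335.3 to 477.6 CPM in nTg. The 10 pyramidal cell markers had a median of -0.08. In Tg at 15 weeks against nTg, 9 of the 10 granule cell markers were negative, with a median of -0.265. All 8 activity-regulated genes were negative there too, with a median of -0.59, and none of either list passed the threshold. The part of these cells or of activity in the channel values was not tested.

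The comparison of Tg at 15 weeks, before plaques, with the same 3 nTg libraries gave a median near that of all genes. No member passed the threshold in edgeR, where 0% of all genes did, and DESeq2 (0.0115% of all genes) and limma voom (0.0286%) called no member either. At an unadjusted p under 0.05, 3 members were higher and 2 lower (4.23% and 2.82% of 71, against 1.32% and 1.97% of all genes). The higher count was 6 without Tg_24w_3 (against 2.37% of all genes), a library of neither group that enters the fit through the gene filter, the scaling and the shared estimate of spread. The lower count was 1 without Tg_15w_3 (against 1.29%) or nTg_24w_1 (against 1.03%). The median log2 difference was -0.02, and 0.00 for all genes. Groups did not overlap for 2 higher and 4 lower members (2.82% and 5.63%, against 4.85% and 5.69% of all genes).

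The smallest p at 15 weeks belonged to K2P genes. Kcnk13, a leak channel that in mouse brain is known from microglia, stood at 4.90, 4.92 and 5.45 CPM in 24-week Tg, at 4.01, 3.70 and 4.65 CPM in 15-week Tg, and at 7.27, 6.16 and 5.82 CPM in nTg. All 6 Tg libraries lay below the 3 nTg libraries. The log2 difference was -0.64 ± 0.19 at 15 weeks, with an unadjusted p of 0.00597 and an adjusted p of 1, and -0.34 ± 0.19 at 24 weeks. The 7 microglial markers summed to 316.3 to 390.7 CPM in 24-week Tg, 302 to 319.5 CPM in 15-week Tg and 287 to 334.5 CPM in nTg, so that these groups overlapped.

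Kcnk4, a mechanically gated leak channel, stood at 12.2, 12.4 and 10.99 CPM in 24-week Tg, at 12.3, 12.6 and 13.5 CPM in 15-week Tg, and at 8.07, 8.94 and 10.9 CPM in nTg. All Tg libraries lay above all nTg libraries, though the nearest pair, Tg_24w_3 and nTg_24w_3, stood at 10.99 and 10.91 CPM. The log2 difference was 0.46 ± 0.16 at 15 weeks and 0.35 ± 0.16 at 24 weeks. The span of Kcnk4 overlaps that of a gene on its own strand, Catsperz, which held 246 counts against 1855 of Kcnk4 over all libraries. Overlap of their exons was not checked, so the level of Kcnk4 may be less certain.

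Kcnip1, a calcium-binding Kcnd partner of interneurons, stood at 20.9, 21.4 and 18.2 CPM in 24-week Tg, at 19.8, 22.2 and 23.1 CPM in 15-week Tg, and at 17.7, 17.6 and 16.9 CPM in nTg. Every Tg library lay above every nTg library. The log2 difference was 0.32 ± 0.14 at 15 weeks and 0.22 ± 0.14 at 24 weeks, the last 0.14 without Tg_24w_2, and both adjusted p-values missed the threshold.

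Kcnt1, a sodium-activated channel, stood at 32.8, 30.4 and 29.4 CPM in 24-week Tg, at 46.5, 35.01 and 39.7 CPM in 15-week Tg, and at 16.2, 23.8 and 36.9 CPM in nTg. The nTg libraries spread over more than the distance between the groups, which overlapped. The log2 difference at 15 weeks was 0.66 ± 0.24, and it was 0.41 without nTg_24w_1 and 1.01 without nTg_24w_3.

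Of the 4 further members with the smallest p at 15 weeks, Kcnj14, an inward rectifier, differed by -0.75 ± 0.36 and Kcnj8, the rectifier of ATP-sensitive channels in vessel walls, by -0.49 ± 0.25. Kcna5, a delayed rectifier, differed by 0.64 ± 0.34. The adjusted p was 1 for each, and Kcnj8 was the one of these 3 whose groups did not overlap.

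The remaining one was Kcne2, an auxiliary subunit of the choroid plexus epithelium, with 21.4, 5.44 and 20.8 CPM in 24-week Tg, 11.3, 11.95 and 6.41 CPM in 15-week Tg, and 26.8, 15.2 and 15.0 CPM in nTg. Its log2 difference at 15 weeks was -0.94 ± 0.43, and -0.61 without nTg_24w_1. At 24 weeks it was -0.26 ± 0.42 with overlapping groups, and it turned to 0.12 without Tg_24w_2 and 0.07 without nTg_24w_1. Kcnj13, an inward rectifier of the same epithelium and named here after its values were seen, had 23.7, 7.85 and 11.1 CPM in 24-week Tg, 11.7, 12.8 and 7.31 CPM in 15-week Tg, and 21.9, 11.1 and 16.4 CPM in nTg. Both were lowest in Tg_24w_2 and Tg_15w_3 and high in Tg_24w_1 and nTg_24w_1. They parted in Tg_24w_3, where Kcne2 was high at 20.8 CPM and Kcnj13 was not, at 11.1 CPM.

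The 10 choroid plexus markers summed to 6714, 1902 and 5484 CPM in 24-week Tg, to 3936, 3344 and 1844 CPM in 15-week Tg, and to 6858, 5141 and 6711 CPM in nTg. None was at 0 in any library. All 10 had negative differences at both ages, with medians of -0.33 at 24 weeks and -1.02 at 15 weeks. The part of choroid plexus tissue in the values of Kcne2 and Kcnj13 was not tested. The span of Kcnj13, introns included, overlaps that of Gigyf2 on the opposite strand. Overlap of their exons was not checked and the strand setting is not known, so whether they share reads is not known.

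**Figure D5:**
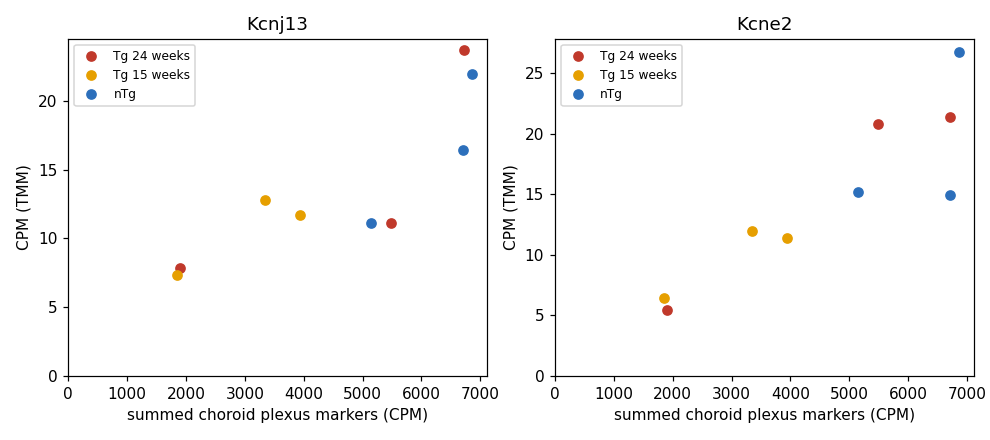
CPM of Kcnj13 (left) and Kcne2 (right) against the summed CPM of 10 choroid plexus markers in each of the 9 libraries, with Tg at 24 weeks in red, Tg at 15 weeks in amber and nTg in blue; both axes start at 0. The libraries with marker sums of 1844 and 1902 CPM have the lowest values of both genes.

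Between the ages, Tg at 24 weeks was set against Tg at 15 weeks, a contrast in which age and label batch cannot be told apart. No member passed the threshold in edgeR, where 0.0344% of all genes did, or in limma voom, where 0.584% did. DESeq2 called 2 members (Kcne1l and Kcnq3) and 1.66% of all genes. At an unadjusted p under 0.05, 6 members were higher and 13 lower (8.45% and 18.3% of 71, against 9.58% and 5.57% of all genes). The 13 were 9 of the 33 Kv genes (27.3%), 3 of the 7 calcium-activated genes (42.9%) and 1 of the 9 K2P genes (11.1%). The lower count was 9 without Tg_24w_3 (against 5.88% of all genes in that fit), 9 without Tg_15w_1 (against 3.45%) and 6 without Tg_15w_2 (against 2.87%). The higher one was 3 without Tg_15w_1 (against 5.02%). Groups did not overlap for 12 higher and 15 lower members (16.9% and 21.1%, against 10.6% and 10.2%).

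The median was -0.10, against 0.02 for all genes, and it moved to -0.05 without Tg_24w_3, to -0.19 without Tg_24w_2, to -0.17 without Tg_15w_1 and to -0.06 without Tg_15w_3. Kcne1l differed by 0.87 ± 0.23 and Kcnq3 by -0.54 ± 0.14, each with an adjusted p of 0.215. Kcnip3 differed by 0.45 ± 0.14, Kcnc4 by 0.39 ± 0.13 and Kcnk9 by -0.63 ± 0.22, the last by -0.41 without Tg_24w_3. These 5 had their library values given above, and none of their groups overlapped.

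Kcnf1, a silent subunit that modifies the Kcnb channels, stood at 47.1, 48.8 and 32.3 CPM in 24-week Tg, at 57.8, 70.97 and 59.6 CPM in 15-week Tg, and at 49.5, 58.5 and 51.0 CPM in nTg. Tg at 24 weeks lay below both other groups. The log2 difference between the ages was -0.55 ± 0.17 with an adjusted p of 0.22, and -0.40 without Tg_24w_3.

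Kcnh7, a channel of the erg family, stood at 40.6, 30.6 and 37.9 CPM in 24-week Tg, at 56.8, 61.9 and 47.0 CPM in 15-week Tg, and at 32.2, 56.0 and 51.4 CPM in nTg. The ages did not overlap, and nTg spanned both. The log2 difference between the ages was -0.60 ± 0.20. Kcna5 stood at 2.02, 1.15 and 1.14 CPM in 24-week Tg, at 3.38, 2.01 and 3.57 CPM in 15-week Tg, and at 2.34, 1.74 and 1.65 CPM in nTg, with a log2 difference between the ages of -1.04 ± 0.34 and overlapping groups.

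Over both ages together, with age as a term in the fit, no member passed the threshold in edgeR, DESeq2 or limma voom, where 0%, 0.195% and 0.0401% of all genes did. At an unadjusted p under 0.05, 2 members were higher and 4 lower (2.82% and 5.63% of 71, against 2.55% and 2.84% of all genes). These counts were 5 and 5 without Tg_24w_3 (against 2.82% and 3.69% of all genes) and 5 and 3 without the nTg library of 15 weeks (against 4.32% and 3.7%). They were 1 and 1 without nTg_24w_1 (against 1.43% and 1.76%) and 3 and 1 without nTg_24w_3 (against 2.55% and 3%). The median was -0.10, against 0.02 for all genes, and -0.03 without Tg_24w_3, -0.06 without nTg_24w_3 and -0.06 without the nTg library of 15 weeks.

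All 6 Tg libraries lay outside the range of the 3 nTg libraries for Kcnk4 and Kcnip1, both higher (2.82%, against 1.12% of all genes), and for Kcnk13, lower (1.41%, against 1.2%). The smallest p was that of Kcnq3, with a log2 difference of -0.44 ± 0.15 and an adjusted p of 0.857. In the test of whether the genotype difference depends on age, no member of 71 and 0% of 19574 genes passed in edgeR, and DESeq2 and limma voom, which each called 0.00511% of genes, called no member. Kcnk3, an acid-sensitive leak channel, and Kcnd1, an A-type channel, were the 2 members with an unadjusted p under 0.05 there, both with a more positive difference at 24 weeks (2.82%, against 0.93% of genes), and no member had one in the other direction (against 1.15% of genes). With 1 library left out these counts were 0 to 2 higher and 0 to 1 lower. They are named because they are the whole of that count. In that test the nTg arm at 15 weeks is 1 library, which is assumed to vary like the other groups.

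Proteins that work with these channels were followed as 29 partner genes: anchors at the axon initial segment, axonal Kcna complexes, calmodulins, auxiliary proteins outside the Kcn names, receptors that open the G protein-gated rectifier, and the Hcn channels. Of these 28 were tested and none passed the threshold at 24 weeks against nTg in edgeR, with a median of -0.07; at an unadjusted p under 0.05, 2 of the 28 were higher and 1 lower, against 7.68% and 5.34% of all genes. Lrrc55, an auxiliary protein of the large-conductance channel, had 19.8, 19.7 and 14.2 CPM in 24-week Tg, 11.1, 13.5 and 14.1 CPM in 15-week Tg, and 11.2, 12.7 and 12.4 CPM in nTg. Its Tg libraries of 24 weeks lay above the other 6, and the log2 difference was 0.57 ± 0.17 with an adjusted p of 0.262. Hcn4, a pacemaker channel, differed by 0.73 ± 0.30 and Dlg2, a scaffold of Kcna channels, by -0.43 ± 0.20, with adjusted p-values of 0.347 and 0.375. The mean level of Hcn4 was 0.69 TPM, below the 1 TPM asked of the members, and its difference ran from 0.35 to 0.85 over 19 alternatives. Without Tg_24w_3 Dlg2 differed by -0.24.

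The members lie on 18 chromosomes, and 4 pairs are neighbours within 200 kb of each other (GRCm38). Kcnj16 and Kcnj2 lie 38.2 kb apart on chromosome 11, Kcna3 and Kcna2 63.1 kb apart on chromosome 3, and Kcna5, Kcna1 and Kcna6 follow each other on chromosome 6 at distances of 105.0 and 61.9 kb. Of the 71 members 33 have a gene whose span, introns included, overlaps theirs on the opposite strand. Overlap of exons was not checked. Where exons overlap, reads could be split only with a strand setting that the sources used here do not give. Among the named members Kcnh3 had 12654 counts against 12678 of Mcrs1, and Kcnj13 had 2212 against 9016 of Gigyf2. Kcnk3 had 2788 against 941 of Gm9899, Kcnj6 had 4000 against 790 of Gm41505, and Kcnh7 had 7549 against 1331 of Gca.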

How the data were processed

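The authors deposited raw counts and TPM values of each gene in each library; FPKM tables were left aside. Per the submitters' processing notes, the tools were featureCounts 2.0.0, HISAT2 2.1.0, Trimmomatic 0.38, CASAVA and DESeq2 1.26.0, with the mouse build GRCm38. For annotation release and strand setting the record is: not given in the sources used here. All 55536 gene positions match GENCODE M21, which gave coordinates and coding sequences.

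Counts were tested with edgeR 4.0.16 in R 4.3.3 (glmQLFit and glmQLFTest, TMM factors, filterByExpr, two-sided, Benjamini-Hochberg adjustment over all genes kept, threshold 0.05). The filter kept 17457 genes and all 71 members. Tg at 24 weeks, Tg at 15 weeks and nTg entered 1 fit as 3 groups. Genotype over both ages had age as a term, and the interaction had 4 groups. The nTg ages were pooled because nTg at 15 weeks has 1 library. CPM values are TMM-normalised; levels between genes use TPM. A standard error is the absolute log2 difference over the square root of the F statistic.

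Alternatives were DESeq2 1.42.0, limma 3.58.1 (voom with quality weights, and log2 of TPM plus 0.5), RLE scaling, other filters, each library left out, the replicate block and same-age libraries. On simulated counts with log2 changes of 1 and 2, 68% and 95% were called for Tg at 24 weeks against nTg (17145 genes simulated), and 59% and 97% for Tg at 15 weeks (17160 genes). For the interaction, 5% and 65% were called (17438 genes). The simulated libraries shared 1 mean per unchanged gene, and none was made to stand apart as Tg_24w_3 does. The members differed from nTg by -0.73 to 0.85 at 24 weeks, less than the changes simulated, so these shares do not give the power for such differences.

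No pair of libraries held the same counts within sampling noise: chi-square per degree of freedom was 9.11 to 80.7 over genes with at least 20 counts. Named were members past the threshold, the 8 of smallest p in each comparison, the 2 highest of each class by TPM, members with no overlap at 24 weeks and a log2 difference of at least 0.5, and the 3 genes on each side of the TPM threshold. Partner genes were named if past the threshold or among the 3 of smallest p at 24 weeks. Some genes that these rules name are not reported here, although they stay in every count. The members, the lists of markers and partners and these rules were chosen with earlier results of these data known.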

Additional observations from a re-analysis of the deposited data

Results flagged for a closer look

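Among the 20 named members tested over the 6 Tg libraries, 2 had a library far from the rest, by the gap to the nearest of the others as a share of the whole range (Dixon's test). Kcnj4 was highest in Tg_24w_3 with 283.9 CPM, while the remaining Tg libraries held 118 to 143 CPM. Kcnj6 was lowest in Tg_24w_3 at 5.534 CPM, against 22.2 to 28.3 CPM in the others. The test takes chance to give such a gap in about 1 of 20 groups. That rate does not hold here, since the members were chosen by differences in these same libraries, which are of both ages. Tg_24w_3 also had the lowest depth and the highest summed blood and striatal markers of the 9 libraries, whose part in these values was not tested.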

How the results depend on the processing

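Among the differences recomputed for single genes, that of Kcne2 at 24 weeks (-0.26) ran from -0.585 to 0.118 with 1 library left out, turning to 0.12 without Tg_24w_2 and to 0.07 without nTg_24w_1. For Tg at 24 weeks against nTg, where edgeR called 0 members, DESeq2 called 2 (against 1.25% of all genes), limma voom 3 (1.36%), the fit with no low-count filter 4 (1.6%), and the fit without both Tg_24w_3 and nTg_24w_1 2 (0.604%); the cause was not tested. The members' median of -0.13 became -0.23 on log2(TPM + 0.5), where the median of all genes moved from 0.03 to -0.08; relative to all genes the members stood at -0.16 on TPM and -0.15 on counts. Leaving out 1 library at a time gave medians of -0.22 to -0.064, with 0 members called each time, where 0.0224% to 0.202% of all genes were. Against the 24-week nTg libraries alone the median was -0.10 and 0 members and 0% of all genes were called. For Tg at 15 weeks, no filter called 1 member (Kcne2) and 0.186% of all genes. With the 15-week nTg library alone, an arm of 1 library whose spread is borrowed from the rest, 0 of 19574 genes passed, so its 0 members say nothing about stability. Between the ages DESeq2 called 2 (against 1.66%) and no filter 5 (against 2.01%). A mean of at least 0.5 TPM gave 76 genes and one of at least 5 TPM 53, with 0 called in each of the 4 comparisons. Correlations between deviations did not set same-numbered samples apart. They ran from -0.25 to 0.29 for the same number and from -0.33 to 0.295 for different numbers. With the replicate block 0 members were called in the 4 comparisons, and the median at 24 weeks was -0.14. Single-gene values kept their direction and side of the threshold in 762 fits and newly passed it in 18. Lowest members rest on few counts, since 1 CPM is 12.73 to 21.53 counts.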
